A study of Mus musculus with 2 samples.

Results

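The granins and the genes that process prohormones were examined in open chromatin data of mouse gonadotrope cells. The list holds 10 of the 21951 protein-coding genes of GENCODE vM21, namely Chga, Chgb, Scg2, Scg3, Scg5, Vgf, Pcsk1, Pcsk2, Pcsk1n and Cpe, and was chosen by gene name, with earlier results of these data known. Every peak with its summit inside one of these genes or within 50 kb of either end was used. This gave 31 of the 58519 peaks of replicate 1 and 48 of the 64984 peaks of replicate 2.

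LβT2 is an immortalized gonadotrope line. It derives from a transgenic mouse pituitary tumor, in which rat LHβ regulatory sequence drove the SV40 T antigen. Cells at passage 21 received 4 pulses of 2 nM GnRH, given every 2 h over 6 h 45 min, and were harvested 45 min after the last pulse. ATAC-seq, in which the Tn5 transposase inserts adapters into accessible DNA, was performed on 2 replicate samples. An untreated sample was not part of the lists used here, and the values do not show what GnRH changed.

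Granins are acidic proteins that aggregate in the trans-Golgi network and take part in forming the dense-core granules from which endocrine cells release hormones on demand. Prohormones packed in these granules are cut at pairs of basic residues by prohormone convertases, and carboxypeptidase E then removes the basic residues left at the ends. In gonadotropes, granins are stored in granules together with the gonadotropins and are released by GnRH.

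The promoters themselves came first. Sequences 250 bases before to 50 bases after the RefSeq start site were available for 8 of the 10 genes on GRCm38.p6, the genes other than Vgf and Cpe. They were searched on both strands for the cAMP response element (CRE, TGACGTCA) and the shorter TGACG that it contains, and for AP1 (TGACTCA), EGR (GCGTGGGCG and GCGGGGGCG), SP1 (GGGCGG, which overlaps EGR in GC-rich runs), the TATA box (TATAAA), NFY (CCAAT), an E-box (CACGTG), SF1 (CAAGGTCA), PITX (TAATCC) and, with up to 2 mismatches, the RE1 element. The full CRE lay in 3 of the 8 promoters, those of Chgb, Scg2 and Pcsk1, and in 588 of 32841 promoters in all (1.79%). Its first base was 68 bases before the RefSeq start in Scg2, 72 in Chgb and 78 in Pcsk1. TGACG, counted also where it is part of the full CRE, was present in 7 of 8, all but Pcsk1n, against 20.8% of all promoters. The 7 include the 3 with the full CRE, so the 2 counts are not separate. The next 4 stretches are shown because they place the same word in promoters with and without a peak. Each is 30 bases from RefSeq, read in the direction of the gene, with the matches in capitals.
Scg2 CRE, chr1:79440076-79440105, minus strand: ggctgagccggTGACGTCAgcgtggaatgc
Chgb CRE, chr2:132781559-132781588, plus strand: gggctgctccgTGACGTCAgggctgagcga
Pcsk1 CRE, chr13:75089768-75089797, plus strand: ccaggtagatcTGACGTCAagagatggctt
Scg3 TGACG, chr9:75684069-75684098, minus strand: gcgctgggtcgcTGACGccatcctcacgcc

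In the peak lists, the CRE of Scg2 lay inside a peak in both replicates. The CRE of Chgb lay inside a peak in replicate 2 and outside the narrower peak of replicate 1. The CRE of Pcsk1 lay in no peak of either list. The TGACG of Scg3 was covered in replicate 2 alone. Over all 588 promoters with the full CRE, 43.2% overlapped a peak in replicate 1 and 56.5% in replicate 2, against 19.1% and 27.3% of all 32841 promoters. A match is a description of the letters in the window and was not tested for binding.

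Longer stretches from the same promoters, limited to bases outside annotated exons, are shown for genes with a peak near the start (Scg2, Scg5 and Pcsk2) and genes with none (Chga and Pcsk1n). The stretches themselves were covered only in part: peaks took in 73 of the 156 bases of Scg2 in replicate 1 and 104 in replicate 2, and in replicate 2 alone 64 of the 220 bases of Scg5 and 49 of the 155 of Pcsk2. Over the whole 300 bases, 2 of the 8 promoters overlapped a peak in replicate 1 and 5 in replicate 2, against the 19.1% and 27.3% of all promoters. Capitals mark any match to the motifs listed above.
Scg2, chr1:79440121-79440276, minus strand: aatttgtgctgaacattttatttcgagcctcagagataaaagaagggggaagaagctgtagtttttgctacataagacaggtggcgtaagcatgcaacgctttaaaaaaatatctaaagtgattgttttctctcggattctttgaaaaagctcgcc
Scg5, chr2:113829122-113829341, minus strand: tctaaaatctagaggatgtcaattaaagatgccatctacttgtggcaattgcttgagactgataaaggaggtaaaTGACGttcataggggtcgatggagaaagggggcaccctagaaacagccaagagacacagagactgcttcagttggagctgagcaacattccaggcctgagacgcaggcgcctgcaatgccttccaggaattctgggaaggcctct
Pcsk2, chr2:143545978-143546132, plus strand: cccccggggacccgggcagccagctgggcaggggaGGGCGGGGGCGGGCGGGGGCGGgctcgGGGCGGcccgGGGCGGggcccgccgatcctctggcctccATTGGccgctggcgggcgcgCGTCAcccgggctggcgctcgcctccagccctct
Chga, chr12:102554691-102554940, plus strand: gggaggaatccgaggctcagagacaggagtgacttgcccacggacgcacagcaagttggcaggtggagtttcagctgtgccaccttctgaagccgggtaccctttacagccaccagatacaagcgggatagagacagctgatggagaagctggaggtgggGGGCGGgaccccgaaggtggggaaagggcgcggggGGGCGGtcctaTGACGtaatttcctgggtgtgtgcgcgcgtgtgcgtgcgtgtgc
Pcsk1n, chrX:7919572-7919821, plus strand: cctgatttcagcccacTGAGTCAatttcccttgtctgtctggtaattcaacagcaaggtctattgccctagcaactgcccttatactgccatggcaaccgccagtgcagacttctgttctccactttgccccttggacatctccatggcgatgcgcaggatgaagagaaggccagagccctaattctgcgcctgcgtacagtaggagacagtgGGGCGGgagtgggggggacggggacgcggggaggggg

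The promoter of Pcsk2 was the richest in G and C of the 8, with 76.3% over its 300 bases and 36 CpG, above 97.2% of all promoters by GC content. It held 3 EGR matches and 7 SP1 matches, none of them inside a peak of either list. Chgb held 1 and 2, all inside its peak of replicate 2 and outside that of replicate 1. EGR words were present in 2 of the 8 and in 3.47% of all promoters, and SP1 in 6 of the 8 and in 35.7%. The promoter of Chgb had a GC content of 72.7% and that of Chga 62.0%, while Pcsk1 (49.3%) and Scg2 (50.7%) lay below the median of all promoters (52.7%). The ratio of observed to expected CpG was above the median of all promoters (0.384) in each of the 8, from 0.422 in Scg5 to 0.856 in Scg2. Chga, without a promoter peak, had a ratio of 0.764, and Scg5, with one, had the lowest of the 8. Neither GC content nor the CpG ratio separated the 5 promoters with a peak from the 3 without. The only TATA match was in Chga, between the RefSeq start and the GENCODE start (1 of 8, and 13.6% of all promoters). AP1 matched Pcsk1n alone (5.20% of all promoters), NFY matched Scg3 and Pcsk2 (37.4%), PITX matched Pcsk1 (7.06%), and no promoter of the 8 held the E-box (7.15%), the SF1 word (1.56%) or the RE1 element (0.0304%).

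A promoter peak was defined as a peak with its summit within 1 kb of any annotated start site (TSS) of the gene. Promoter peaks were found at 5 of the 10 genes in replicate 1 (Chgb, Scg2, Scg5, Pcsk2 and Cpe) and at 6 in replicate 2, where Scg3 was added. Of all protein-coding genes, 32.3% had a promoter peak in replicate 1, 44.4% in replicate 2 and 30.8% in both. In both replicates the count for the 10 genes was 5, and 4 of these 5 rested on overlapping peaks. Chga, Vgf, Pcsk1 and Pcsk1n had no promoter peak in either list. With −log10 q of at least 10, a stricter threshold, the count was 0 in replicate 1 and 5 in replicate 2, beside 11.1% and 26.7% of all protein-coding genes, and it was 0 in both replicates, beside 10.8%. With 500 bp in place of 1 kb, 3 of the 10 genes had a promoter peak in replicate 1, 6 in replicate 2 and 3 in both, since the summits of Chgb and Pcsk2 in replicate 1 lay farther out. The shares of all protein-coding genes at that width, computed after the data were seen, were 30.1%, 41.7% and 28.4%, so that the counts in replicate 1 and in both were near the share of all genes.

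The height of each peak is given here as tags at its summit, the number of extended reads solved from the fold enrichment and p of the peak. The background was 3.05 tags in replicate 1 and 3.54 in replicate 2, and the lowest peak of each list held 10 and 11 tags. According to the methods, MACS2 was run with the genome size set for the fly (-g dm) on these mouse reads. The background, and with it fold, p, q and the lowest detectable peak, depends on that setting, and another was not tested. A gene without a promoter peak is therefore one where none was detectable above about these counts. Intervals are exact 95% Poisson intervals and cover counting error only. The study describes independent samples and libraries, but neither it nor the labels say whether the replicates came from separate cultures.

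**Figure D1:**
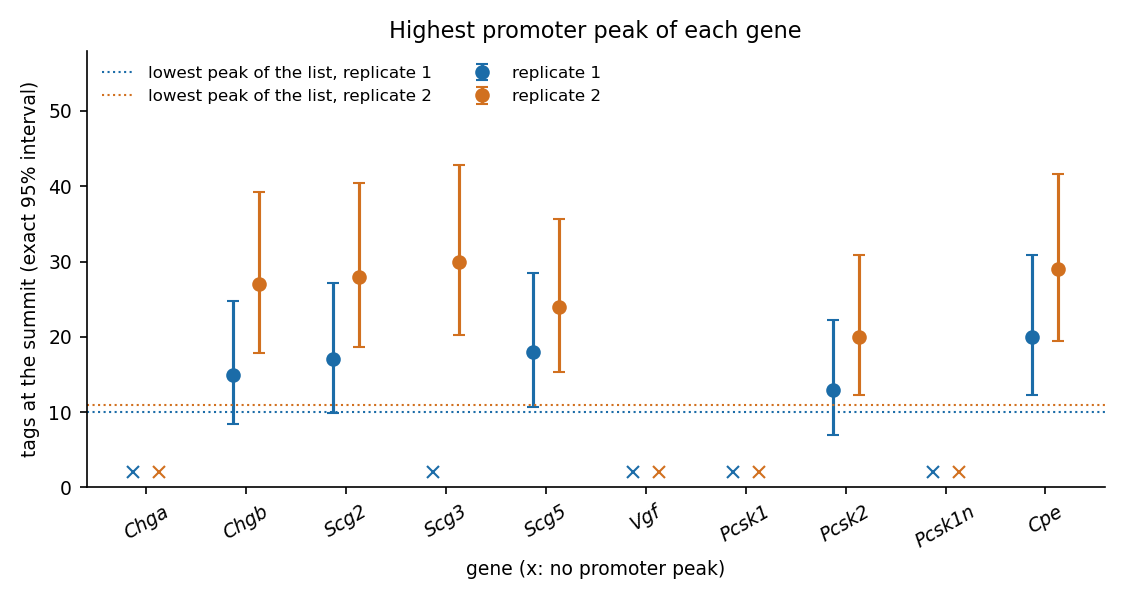
Tags at the summit of the highest promoter peak of each of the 10 genes, by replicate, with exact 95% Poisson intervals; crosses mark genes with no promoter peak and dotted lines the lowest peak of each list (10 and 11 tags). The values ran from 13 to 20 tags in replicate 1 and from 20 to 30 in replicate 2, and the intervals of the genes overlap within each replicate.

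Among the granins, Scg2 encodes secretogranin II, the precursor of secretoneurin. Its promoter peak held 17 tags in replicate 1 (9.90 to 27.2) and 28 in replicate 2 (18.6 to 40.5). The −log10 q was 5.50 and 13.4, a mean of 9.46 ± 5.61 (SD, n = 2). The peaks of both lists overlapped by 204 bp, the whole width in replicate 1, at chr1:79439990-79440193. Their summits lay 81 bp apart, 29 and 26 bp upstream of the nearest GENCODE start, which was not the same start in the 2 replicates, and 123 and 42 bp upstream of the RefSeq start. The window of Scg2 held no other peak in replicate 1 and 1 distal peak in replicate 2.

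Chgb encodes chromogranin B. Its promoter peak held 15 tags in replicate 1 (8.40 to 24.7) and 27 in replicate 2 (17.8 to 39.3), with a fold enrichment of 3.95 and 6.17 over the background. The replicate 2 peak, at chr2:132781397-132782018, was 622 bp wide and contained the whole 332 bp of the replicate 1 peak. The summits lay 602 and 497 bp downstream of the GENCODE start, but 238 and 133 bp downstream of the RefSeq start, which is placed inside the GENCODE first exon. The distance to the start thus depended on the annotation, while the gene had a promoter peak under either. The other peak found in both replicates of the Chgb window lay 34.8 and 34.9 kb from its start, at the promoters of the neighbours Trmt6 and Mcm8, with 23 and 48 tags.

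Scg3 encodes secretogranin III, which binds chromogranin A in granules. It had a promoter peak in replicate 2 alone, at chr9:75683923-75684175, with 30 tags (20.2 to 42.8), −log10 q of 15.2 and its summit 10 bp from the nearest start. This was 1 tag above Cpe, the next highest of the 10 genes in that replicate. In replicate 1 the nearest peak to any Scg3 start lay 31.5 kb away and had a summit sequence present at 10 places in the genome. Scg3 was thus the 1 gene with a promoter peak in a single replicate.

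Scg5 encodes a small secretory chaperone of the convertase made by Pcsk2. A promoter peak was called in both replicates, with 18 tags in replicate 1 (10.7 to 28.4) and 24 in replicate 2 (15.4 to 35.7). These were not the same peak. The summits were 632 bp apart and the peaks shared 0 bp. In replicate 2 the peak, at chr2:113828941-113829185, was at the start itself, with its summit 86 bp inside the gene. In replicate 1 it was at chr2:113828293-113828538, 0.718 kb inside the gene and 359 bp from the start of a shorter noncoding transcript.

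Chga encodes chromogranin A, and Vgf a precursor of several neuropeptides. Neither had a promoter peak. The nearest peak to a start of Chga was 85.8 kb away in replicate 1 and 3.64 kb upstream in replicate 2, where it held 20 tags. The window of Chga had no peak in replicate 1 and 3 in replicate 2, at 3.64, 8.08 and 22.4 kb upstream, with 20, 13 and 13 tags. The window of Vgf had no peak in replicate 1, and its 2 peaks in replicate 2 lay at the promoters of Znhit1 (27 tags) and Ap1s1 (17 tags). Of the 6 granin genes, 3 had a promoter peak in both replicates, 1 in replicate 2 alone and 2 in neither, where 30.8% of all protein-coding genes had one in both. The peaks of the replicates overlapped at 2 of the 3, Chgb and Scg2.

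The convertase genes differed in the same way. Pcsk1 and Pcsk2 encode the main convertases of dense-core granules. Pcsk1 had no promoter peak, and the nearest peaks to any of its starts lay 70.9 kb away in replicate 1 and 61.6 kb away in replicate 2, in sequence present at 1098 and 994 places. Its window held 1 peak in replicate 1 and 2 in replicate 2, all distal, multi-copy and not shared. Among the highest promoter peaks of each gene, those of Pcsk2 were the lowest in both replicates. They held 13 tags in replicate 1 (6.92 to 22.2) and 20 in replicate 2 (12.2 to 30.9). Their summits lay 865 and 583 bp upstream of the start, and the peaks overlapped by 64 bp. A second promoter peak of 17 tags was called in replicate 2 alone, 23 bp from the GENCODE start and on the RefSeq start. A start of the antisense gene Pcsk2os1 lies within 1 kb of the same summits, so position does not assign these peaks to 1 of the genes.

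Pcsk1n encodes proSAAS, an inhibitor of the convertase made by Pcsk1. It had no promoter peak, and the nearest peak lay 20.8 and 20.6 kb upstream of its start in the 2 replicates. That peak, at the promoter of Pqbp1, held 15 tags in replicate 1 and 32 in replicate 2. All 4 peaks of the Pcsk1n window in both lists together lay at promoters of other genes, with Pim2 (28 tags) and Hdac6 (24 tags) in replicate 2.

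Cpe encodes carboxypeptidase E. Its promoter peak held 20 tags in replicate 1 (12.2 to 30.9) and 29 in replicate 2 (19.4 to 41.6), with a mean −log10 q of 11.0 ± 4.65 (SD, n = 2). The peak, at chr8:64692809-64693122 in replicate 1, lay wholly inside that of replicate 2, and the summits were 45 bp apart, 14 and 59 bp inside the GENCODE start. Cpe and Scg2 were the 2 genes with promoter summits within 100 bp of each other in both replicates. A further peak of 13 tags in replicate 2 alone lay 72.2 kb into the gene, with its summit 418 bp upstream of the start of a short noncoding transcript.

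Within a replicate the promoter peaks were not told apart by their tags. In replicate 1 the order was Cpe (20 tags), Scg5 (18), Scg2 (17), Chgb (15) and Pcsk2 (13). In replicate 2 it was Scg3 (30 tags), Cpe (29), Scg2 (28), Chgb (27), Scg5 (24) and Pcsk2 (20). Neighbours in these orders are close by construction, and their 9 exact two-sided binomial tests gave p of 0.652 to 1. Over all 25 pairs within a replicate, a comparison added after the data were seen, the lowest p was 0.203, for Scg3 against Pcsk2 in replicate 2, and 0.296 in replicate 1, for Cpe against Pcsk2. Thus 0 of 25 pairs passed at an unadjusted p of 0.05 or with Benjamini-Hochberg adjustment. Pcsk2 was the lowest in both replicates, and Cpe was above Scg2, Chgb, Scg5 and Pcsk2 in both, although no pair was told apart.

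Between replicates, the tags over background were higher in replicate 2 for each of the 5 genes with a promoter peak in both. The ratio of replicate 2 to replicate 1 was 1.55 for Chgb (95% interval 0.797 to 3.14), 1.42 for Scg2 (0.751 to 2.77), 1.33 for Pcsk2 (0.628 to 2.90) and 1.25 for Cpe (0.684 to 2.33). For Scg5, where different peaks were compared, it was 1.15 (0.599 to 2.25). Each interval included 1, and the exact two-sided binomial p ranged from 0.215 to 0.757, with 0 of 5 below 0.05. These tests compare the 2 libraries and not conditions. They cover only genes called in both lists, which favours similar values. Scg3, with 30 tags in replicate 2 and no promoter peak in replicate 1, was left out, so agreement between the replicates cannot be read from them. Over all protein-coding genes with a promoter peak, the median was 19 tags in replicate 1 and 27 in replicate 2. The share of them that was higher in replicate 2 was not computed.

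Against all protein-coding genes with a promoter peak, 4 of the 5 genes in replicate 1 and 2 of the 6 in replicate 2 ranked below the middle. By −log10 q, the peaks of Cpe ranked at percentile 55.3 of 7085 genes in replicate 1 and 56.9 of 9740 in replicate 2. Those of Scg2 ranked at 39.0 and 54.2, Chgb at 25.3 and 51.2, Scg5 at 45.0 and 41.6, and Pcsk2 at 12.0 and 27.5, and Scg3 was at 59.3 in replicate 2. With the highest promoter peak of each gene, the median was 17 tags in replicate 1 and 27.5 in replicate 2. Over all protein-coding genes with a promoter peak it was 19 and 27. Counting all 8 promoter peaks of the 10 genes in replicate 2, the median was 25.5. The highest of these percentiles was that of Scg3 in replicate 2.

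Markers of the gonadotrope were open in part. Lhb held 49 tags in replicate 1 and 70 in replicate 2 at its promoter, Cga 25 and 50, and Gnrhr 22 and 33, and Nr5a1 had a peak of 17 tags in replicate 2. Fshb, Pitx1 and Lhx3 had no promoter peak, so the count was 3 of 7 in replicate 1 (42.9%) and 4 of 7 in replicate 2 (57.1%), beside 32.3% and 44.4% of all protein-coding genes. None of the 6 markers of other pituitary lineages (Gh, Prl, Tshb, Pomc, Pou1f1 and Tbx19) had a promoter peak in either list, beside the same shares. Lhb ranked at percentile 97.3 and 95.7, above every granin and processing gene of the list.

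A second list held 17 other genes of protein and peptide processing. Promoter peaks were present at 5 of these in replicate 1, 10 in replicate 2 and 4 in both, which is 29.4%, 58.8% and 23.5% of them. The shares were 50%, 60% and 50% for the 10 genes and 32.3%, 44.4% and 30.8% for all protein-coding genes. Mean ranks in this list counted a missing promoter peak as percentile 0. By this rule the highest were those of Cpd (17 and 25 tags), Ctsl (16 and 27) and Cpm (13 and 28). Cpd is the carboxypeptidase of the trans-Golgi network, Ctsl a lysosomal cysteine protease and Cpm a carboxypeptidase of the plasma membrane. Rnpep (27 tags) and Pcsk4 (21) had a promoter peak in replicate 2 alone. Pam, the amidating enzyme of secretory granules, had 13 tags in replicate 1 and no promoter peak in replicate 2. Furin, the convertase of the constitutive pathway, had none in either list. With −log10 q of at least 10, 0 of the 17 had one in replicate 1 and 4 (23.5%) in replicate 2, beside 11.1% and 26.7% of all protein-coding genes. No difference between the 2 lists was tested.

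**Figure D2:**
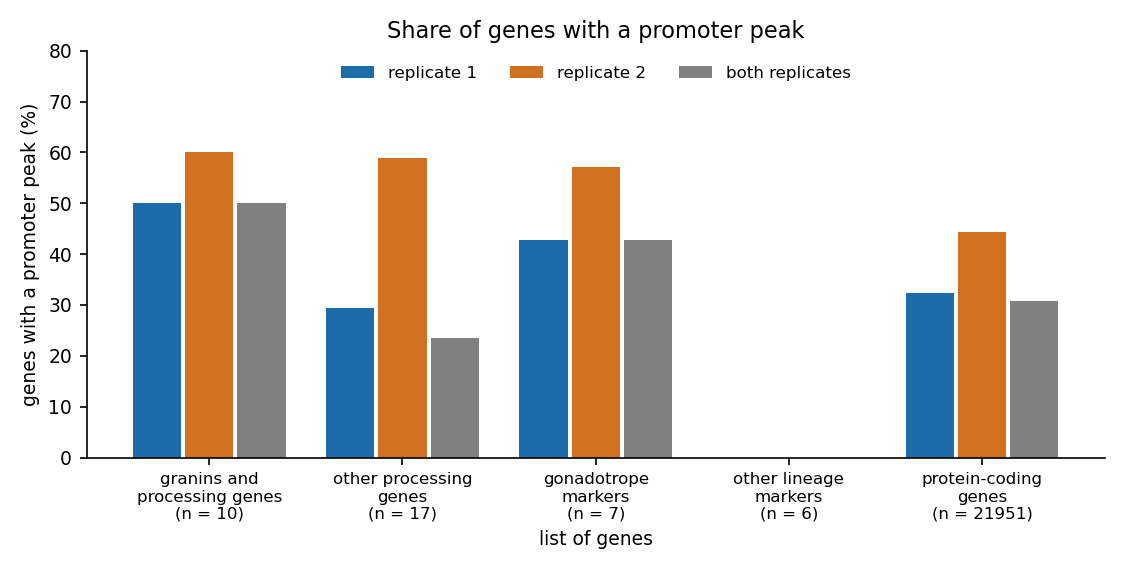
Percent of genes with a promoter peak in replicate 1, in replicate 2 and in both, for the 10 granin and processing genes, 17 other processing genes, 7 gonadotrope markers, 6 markers of other pituitary lineages and all 21951 protein-coding genes. The 10 genes stood at 50% and 60%, the other lineage markers at 0%, and all protein-coding genes at 32.3% and 44.4%.

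The windows were then examined beyond the promoters. In replicate 1 the 31 peaks fell into 5 at a promoter of the gene itself, 4 at a promoter of another gene, 14 intronic and 8 distal. In replicate 2 the 48 peaks fell into 8, 10, 12 and 18. No summit lay in an exon of the 10 genes outside the promoters. Exons and introns of neighbouring genes were not checked, so a distal peak can lie inside a neighbour. Together the windows held 2.00 peaks per 100 kb in replicate 1 and 3.10 in replicate 2, where the median protein-coding gene had 1.73 and 2.31 in its window. The median over the 10 genes was 1.19 in replicate 1 and 2.68 in replicate 2, below that of protein-coding genes in the first and above it in the second. Of the peaks in all windows, Pcsk2 held 13 of 31 and 13 of 48 and Scg5 held 7 and 12, most of them multi-copy as defined below. The density varied from 0 at Chga and Vgf in replicate 1 to 7.86 per 100 kb at Scg5 in replicate 2, which ranked Scg5 at percentile 87.5 and 94.9 of all protein-coding genes. Pcsk2, with 13 peaks in each replicate, owed its count in part to its length of 270 kb, and its density ranked at percentile 78.6 and 69.4.

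**Figure D3:**
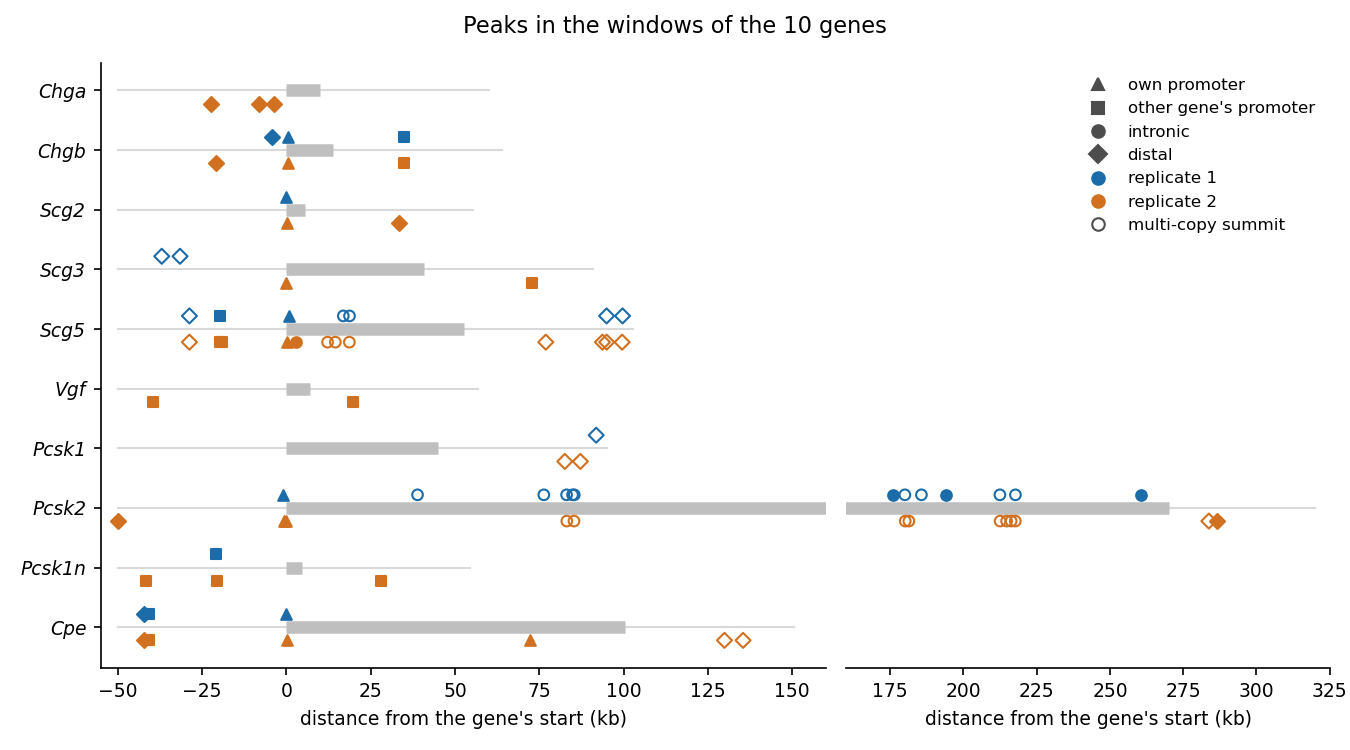
Summits of all peaks in the windows of the 10 genes against the distance from each gene's start in kb (negative: upstream), replicate 1 above and replicate 2 below each line, with the gene as a grey bar and the axis split after 160 kb. Promoter peaks and most peaks of short genes are filled (single-copy summits), while the peaks inside and around Scg5 and Pcsk2 are mostly open (multi-copy).

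The copy number of the sequence under the summit was 1 at every promoter peak of the windows and varied among the other peaks. A summit was called multi-copy where the 50 bp around it occurred at more than 1 place in the genome, where a read within that sequence has more than 1 possible place. Reads were paired-end, and whether those mapping to several places were filtered is not given in the sources used here. All peaks at promoters of the 10 genes (5 in replicate 1 and 8 in replicate 2) and all peaks at promoters of other genes in the windows (4 and 10) had single-copy summits. Of the intronic and distal peaks, 17 of 22 in replicate 1 and 21 of 30 in replicate 2 were multi-copy, with medians of 839 and 328 places. Over the whole lists, copy number was known for 57979 summits in replicate 1 and 64466 in replicate 2. Of these, 66.9% and 61.1% were multi-copy. Among 6237 and 8634 highest promoter peaks of protein-coding genes, 8.14% and 6.20% were multi-copy.

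**Figure D4:**
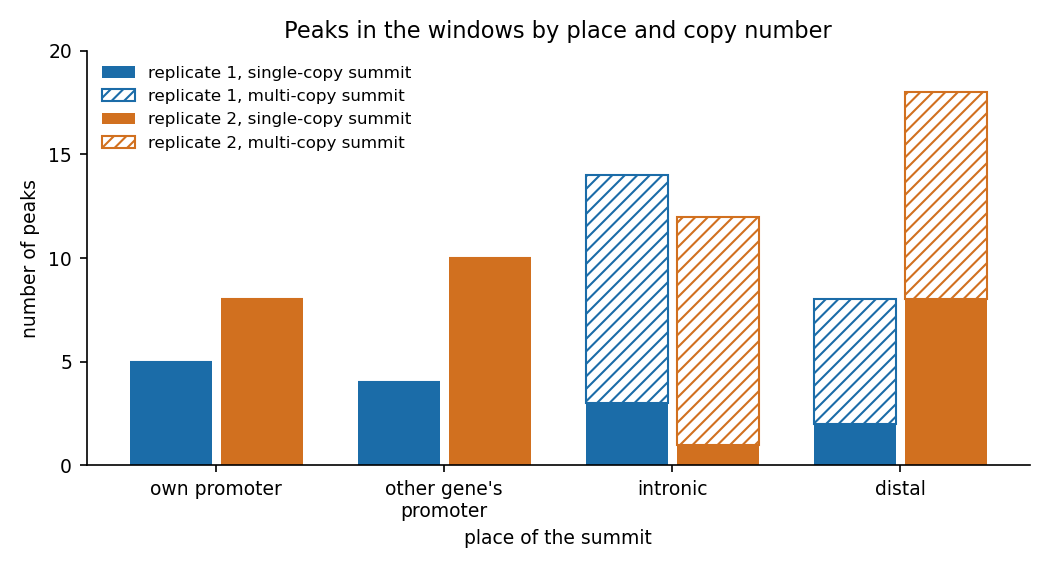
Number of peaks in the windows of the 10 genes by place of the summit and replicate, split into single-copy (filled) and multi-copy summits (hatched). Peaks at promoters were single-copy throughout, and multi-copy summits made up 11 of 14 and 11 of 12 intronic peaks and 6 of 8 and 10 of 18 distal peaks.

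Pcsk2 had the most intronic peaks, 12 in replicate 1 and 8 in replicate 2. Of these, 9 and 8 were multi-copy. The highest were at 218 kb from the start in replicate 1 (26 tags) and at 180 kb in replicate 2 (28 tags), each present in both lists, with 15 tags at the first site in replicate 2 and 20 at the second in replicate 1. The summit sequences of these occurred at 2 places (replicate 1, first site) and 1213 places (replicate 2, second site). The 3 single-copy intronic peaks of Pcsk2, with 14, 11 and 14 tags, were present in replicate 1 alone. No intronic peak of Pcsk2 was thus both single-copy and shared.

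**Figure D5:**
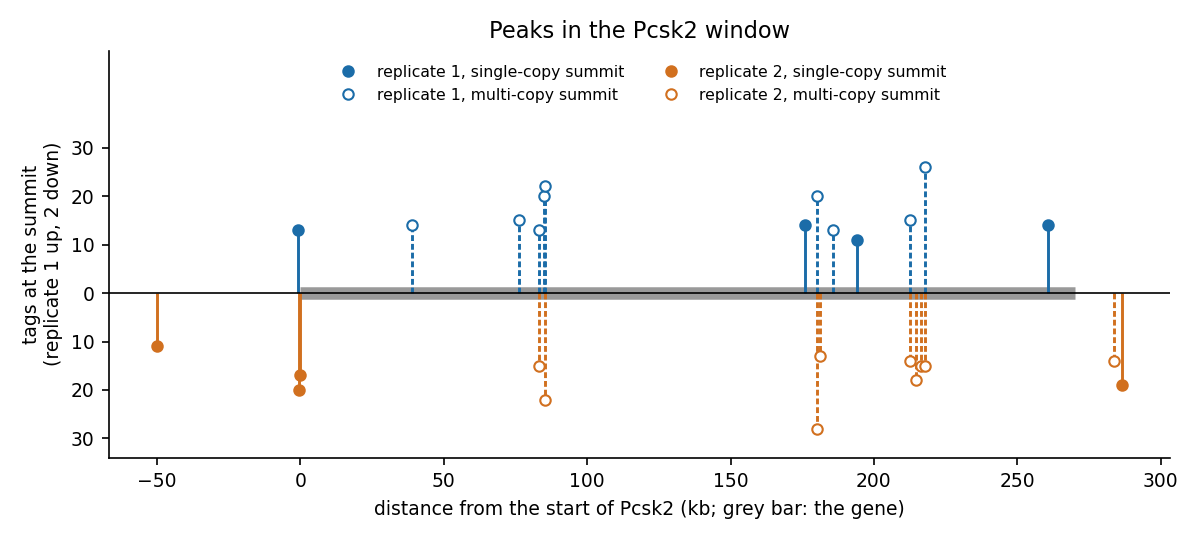
Tags at the summit of each peak in the Pcsk2 window against the distance from the start of Pcsk2 in kb, replicate 1 upward and replicate 2 downward, filled for single-copy and open for multi-copy summits. The filled points of the replicates meet only at the promoter, and the sites near 83, 85, 180, 212 and 218 kb that recur in both are open.

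Scg5 had 2 intronic and 3 distal peaks in replicate 1 and 4 and 5 in replicate 2. All but 1 of these 14 were multi-copy, and 4 in each list overlapped a peak of the other. The exception was an intronic peak of 12 tags in replicate 2, 2.82 kb from the start. The peak at the promoter of the neighbour Arhgap11a, 19.6 kb upstream of Scg5, was single-copy and present in both lists with 14 and 32 tags.

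A single intronic or distal peak in all 10 windows was both single-copy and shared. It lay 42.2 kb upstream of Cpe in replicate 1 and 42.1 kb in replicate 2, next to the promoter of Msmo1, with 13 and 22 tags, while the Msmo1 promoter itself held 21 and 39. The distance to Cpe does not show that it acts on Cpe. The strongest distal peak near Chga, 3.64 kb upstream and found in replicate 2 alone, was also single-copy. The 50 bases on either side of both summits (of replicate 2, from the RefSeq genome GRCm38.p6) held none of the motifs listed above.
Upstream of Cpe, chr8:64735151-64735251, plus strand: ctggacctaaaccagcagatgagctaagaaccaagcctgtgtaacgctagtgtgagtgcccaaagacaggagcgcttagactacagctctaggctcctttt
Upstream of Chga, chr12:102551276-102551376, plus strand: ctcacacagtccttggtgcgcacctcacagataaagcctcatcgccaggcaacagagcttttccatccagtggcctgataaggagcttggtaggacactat

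Sharing between replicates was unequal. Of the peaks in the windows, 19 of 31 in replicate 1 (61.3%) had 1 bp or more in common with the other list, and so had 18 of 48 in replicate 2 (37.5%). The mean was 49.4% ± 16.8 (SD, n = 2). Both shares rest on the same overlap of the lists, so this SD does not measure the spread between independent replicates. Over the whole lists the shares were 59.1% and 51.6%. At promoters of the 10 genes, 4 of 5 peaks of replicate 1 and 4 of 8 of replicate 2 were shared, and at promoters of other genes 4 of 4 and 4 of 10. Of the intronic and distal peaks, 11 of 22 and 10 of 30 were shared, and 10 and 9 of these were multi-copy.

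Within each locus, the promoter peak was compared with the highest intronic or distal peak of the same window and replicate. At Chgb the promoter held more tags in both replicates (15 against 11 and 27 against 15), as did Cpe (20 against 13 and 29 against 22) and, in replicate 2, Scg2 (28 against 18). At Scg5 the values were 18 against 18 and 24 against 22. The highest peak was drawn from 12 and 11 intronic and distal peaks at Pcsk2, from 5 and 9 at Scg5 and from 1 in each replicate at Chgb, and more peaks to draw from can give a higher maximum. At Pcsk2 the order was the opposite, with 13 tags at the promoter against 26 in an intron in replicate 1 and 20 against 28 in replicate 2, but both intronic summits were multi-copy. With single-copy summits alone, the Pcsk2 promoter held 13 tags against 14 in an intron in replicate 1 and 20 against 19 at a distal peak in replicate 2, and the comparison at Scg5 was 24 against 12 in replicate 2. With all summits, none of the 9 comparisons passed an exact two-sided binomial test, with 0 of 9 below an unadjusted p of 0.05, the lowest p being 0.0533 for Pcsk2 in replicate 1 and 0.0884 for Chgb in replicate 2. Only loci with a called peak on both sides entered, so larger contrasts were left out. The promoter peaks of Scg3 in replicate 2 (30 tags) and Scg2 in replicate 1 (17 tags) had no intronic or distal peak to compare with. Chga in replicate 2 had a distal peak of 20 tags and no promoter peak. The size of difference that these tag counts could detect was not computed.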

How the data were processed

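ATAC-seq peak lists of 2 replicate samples were used. Replicates are numbered as in the sample titles, while the names of the deposited files number them 4 and 2. Per the methods, Bowtie2 was used by the authors for alignment to GRCm38, duplicate reads were dropped and MACS2 called peaks; each replicate has its own deposited list (versions not given in the sources used here). The deposited columns give a peak score, the ratio (fold enrichment) of the summit over the MACS2 background, and −log10 values of p and q. No other input or read coverage was analysed here.

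Everything else was computed with scipy 1.17.1, pandas 2.3.3, numba 0.67.0, numpy 2.4.6 and matplotlib 3.10.9 under Python 3.11.15, using GENCODE vM21 and RefSeq GRCm38.p6. Tags at each summit and 1 background per list were solved from fold and p, and the recomputed −log10 p was within 1.53e-04 of the deposited value. The tags set the precision: the median peak held 14 tags in replicate 1 and 16 in replicate 2. A summit was assigned in the order promoter of the gene, promoter of another gene (both 1 kb), exon of the gene, intron of the gene and distal, within 50 kb of the gene. Peaks with 1 bp or more in common counted as shared. Copy number was counted for the 50 bp around each summit. Tags were compared with exact two-sided binomial tests (Benjamini-Hochberg adjustment, threshold 0.05), tested with the other measures in 22 checks on simulated data. With 1 condition, no groups were compared.

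The members and lists were chosen with earlier results of these data known. Named were all 10 genes, neighbours with a peak at their promoter inside a window, markers, and up to 6 of the 17 other processing genes by mean rank of their promoter peak (Pam and Furin were added after their values were seen). Alternatives concerned the threshold on q, the promoter width, the TSS, the genes behind the overall share, the window, the overlap, copy number and leaving out a replicate.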

Additional observations from a re-analysis of the deposited data

How the results depend on the processing

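The mean count of genes with a promoter peak was 5.5 of 10, and 5 genes had one in both replicates. With −log10 q of at least 10 these fell to 2.5 and 0, and with 500 bp around a TSS to 4.5 and 3. With 2 kb, with any base of a peak within 1 kb of a TSS, with the TSS of protein-coding transcripts and with those of RefSeq, both counts were as before. The mean share of all protein-coding genes, 38.3%, was 40.3% with 2 kb, 39.0% with any base and 37.3% with protein-coding transcripts (added after seeing the data), and was not computed with RefSeq. Over all GENCODE genes in place of the protein-coding ones, the share was lower, with a mean of 20.3% (17.3% in replicate 1 and 23.3% in replicate 2). Leaving out a replicate gave 5 to 6 of the 10 genes.

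The mean number of peaks in the windows, 39.5, was 24 with windows of 20 kb, 60.5 with 100 kb, 7.5 with −log10 q of at least 10 and 20.5 with single-copy summits, and 31 to 48 without a replicate. Each of these settings takes in fewer or more peaks by its construction. The mean share of shared peaks, 49.4%, was 37.2% with an overlap of at least 50% of both peaks, 34.5% with summits within 100 bp, 48.8% with single-copy summits and 80.8% with −log10 q of at least 10 (2 and 13 peaks). Leaving out a replicate is no test of this share, which needs both lists. It only returns the main values of the single lists, 37.5% and 61.3%.

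The exact tests were repeated with settings chosen after seeing the data. No adjusted p fell below 0.05 with 500 bp or 2 kb, without a replicate, over all pairs or, for the comparison within a locus, with single-copy summits alone. The lowest unadjusted p of that comparison was 0.0195, with 2 kb, and 0.0533 to 0.0884 without a replicate; for the order of the promoter peaks it was 0.349 with 500 bp, 0.203 over all pairs and 0.652 to 0.851 without a replicate. No paired analysis was possible because the series has 1 group. The number of tags limits the peak heights and their comparisons.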
